A study of Homo sapiens with 6 samples.

Results

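SIRT1, KDM2A and 5 genes for partners of KDM2B in the Polycomb complex PRC1.1 (BCOR, RNF2, RYBP, SKP1 and USP7) were examined for peaks of H3K79me2 and H3K79me3. These marks are histone H3 with 2 or 3 methyl groups on lysine 79. A peak was taken for a gene when it overlapped the gene's hg19 span by at least 1 bp. This gave 18 peaks out of 27470 on the chromosomes analysed, in 5 of the 7 genes. The cells were 293T, a human embryonic kidney line that expresses the SV40 large T antigen. One stable line carried the hairpin shCTL, the control, and the other the hairpin shKDM2B, against KDM2B. Each line gave 1 H3K79me2, 1 H3K79me3 and 1 input library, the last without antibody. Both lines therefore carry a stable hairpin, and the labels do not say whether a line is 1 clone. KDM2B itself was not analysed, and the word knockdown is used here as the labels use it. Each group is 1 library, so no test between the lines was possible, and every difference below is one between libraries, without a replicate check.

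H3K79 is methylated by DOT1L, and the mark lies mostly over the first part of transcribed genes, where it accompanies elongating RNA polymerase II. KDM2B belongs to the JmjC demethylase family and carries a CXXC zinc finger that binds unmethylated CpG dinucleotides, through which PRC1.1 reaches CpG islands. The complex adds ubiquitin to histone H2A. The study asked whether KDM2B also removes methyl groups from H3K79, and its title places SIRT1, a NAD-dependent deacetylase, in the silencing that follows.

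KDM2A, the paralog of KDM2B, has the same CXXC finger. The sequences before the starts of SIRT1, KDM2A and BCOR are shown because the peaks in these genes lie at some of their starts and not at others, and because the CXXC finger reads the dinucleotide marked here. They are the 250 bases before each start that RefSeq lists (GRCh38.p14), written 5′ to 3′ on the gene's strand, with CG in capitals. The SIRT1 start is preceded by chr10:67884406-67884655 (plus strand), the KDM2A starts by chr11:67119013-67119262 and chr11:67239764-67240013 (plus strand), and the BCOR starts by chrX:40177278-40177527 and chrX:40146634-40146883 (minus strand).
SIRT1: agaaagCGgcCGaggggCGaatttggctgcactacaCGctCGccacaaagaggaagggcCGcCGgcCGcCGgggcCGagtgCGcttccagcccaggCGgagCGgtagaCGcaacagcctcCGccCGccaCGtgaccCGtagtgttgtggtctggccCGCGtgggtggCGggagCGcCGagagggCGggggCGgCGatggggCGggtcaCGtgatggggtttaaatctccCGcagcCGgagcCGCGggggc
KDM2A first start: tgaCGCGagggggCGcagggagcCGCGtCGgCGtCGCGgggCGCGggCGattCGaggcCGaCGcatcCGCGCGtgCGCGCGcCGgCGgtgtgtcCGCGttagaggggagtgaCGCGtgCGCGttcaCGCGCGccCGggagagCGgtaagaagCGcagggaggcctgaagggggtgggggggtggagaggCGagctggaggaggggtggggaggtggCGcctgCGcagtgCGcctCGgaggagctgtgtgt
KDM2A second start: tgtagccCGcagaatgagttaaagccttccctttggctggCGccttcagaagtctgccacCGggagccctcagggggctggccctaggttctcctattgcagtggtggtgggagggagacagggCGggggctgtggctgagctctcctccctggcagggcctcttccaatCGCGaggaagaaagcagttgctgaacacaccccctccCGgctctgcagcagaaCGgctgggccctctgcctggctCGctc
BCOR first start: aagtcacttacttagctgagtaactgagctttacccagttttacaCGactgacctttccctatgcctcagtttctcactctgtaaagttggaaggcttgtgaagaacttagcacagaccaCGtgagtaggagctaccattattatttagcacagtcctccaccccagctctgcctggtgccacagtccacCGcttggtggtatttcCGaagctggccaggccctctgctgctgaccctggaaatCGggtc
BCOR second start: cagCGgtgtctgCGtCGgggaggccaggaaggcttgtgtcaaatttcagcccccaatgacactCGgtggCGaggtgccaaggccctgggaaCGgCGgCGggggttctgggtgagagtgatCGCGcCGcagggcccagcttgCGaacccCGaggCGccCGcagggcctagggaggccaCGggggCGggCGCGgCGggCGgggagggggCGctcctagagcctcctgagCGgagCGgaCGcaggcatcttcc
The second KDM2A start lies 120.8 kb after the first, and the second BCOR start 30.6 kb after the first. The dinucleotide CG reads the same on both strands. It occurs 32 times in the SIRT1 sequence, 40 and 9 times before the first and second KDM2A start, and 5 and 25 times before those of BCOR. All 7 genes matched the RefSeq table, with 11 starts. The other first starts hold 34 (RNF2), 17 (RYBP), 35 (SKP1) and 43 (USP7), and the later 2 of USP7 hold 1 and 0. Of all 35116 listed starts, 93.9% hold at least 1 CG in this window, with a median of 11.

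Peaks stood in 3 kinds of place along the genes. At the 5′ end, 8 of the 18 peaks reached within 5 kb of the start of the span, in SIRT1, RYBP and SKP1. In KDM2A and BCOR, 6 peaks had their summit within 1 kb of the distance at which RefSeq lists the second start, and none reached within 5 kb of the first. The distances of the peaks are in hg19 and those of the starts in GRCh38; no position was converted between the builds. The other 4 peaks lay elsewhere in KDM2A, BCOR and RYBP. RNF2 and USP7, whose first starts are preceded by 34 and 43 CG, had no listed peak in any library. A link between CG count and peaks was not tested.

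**Figure D1:**
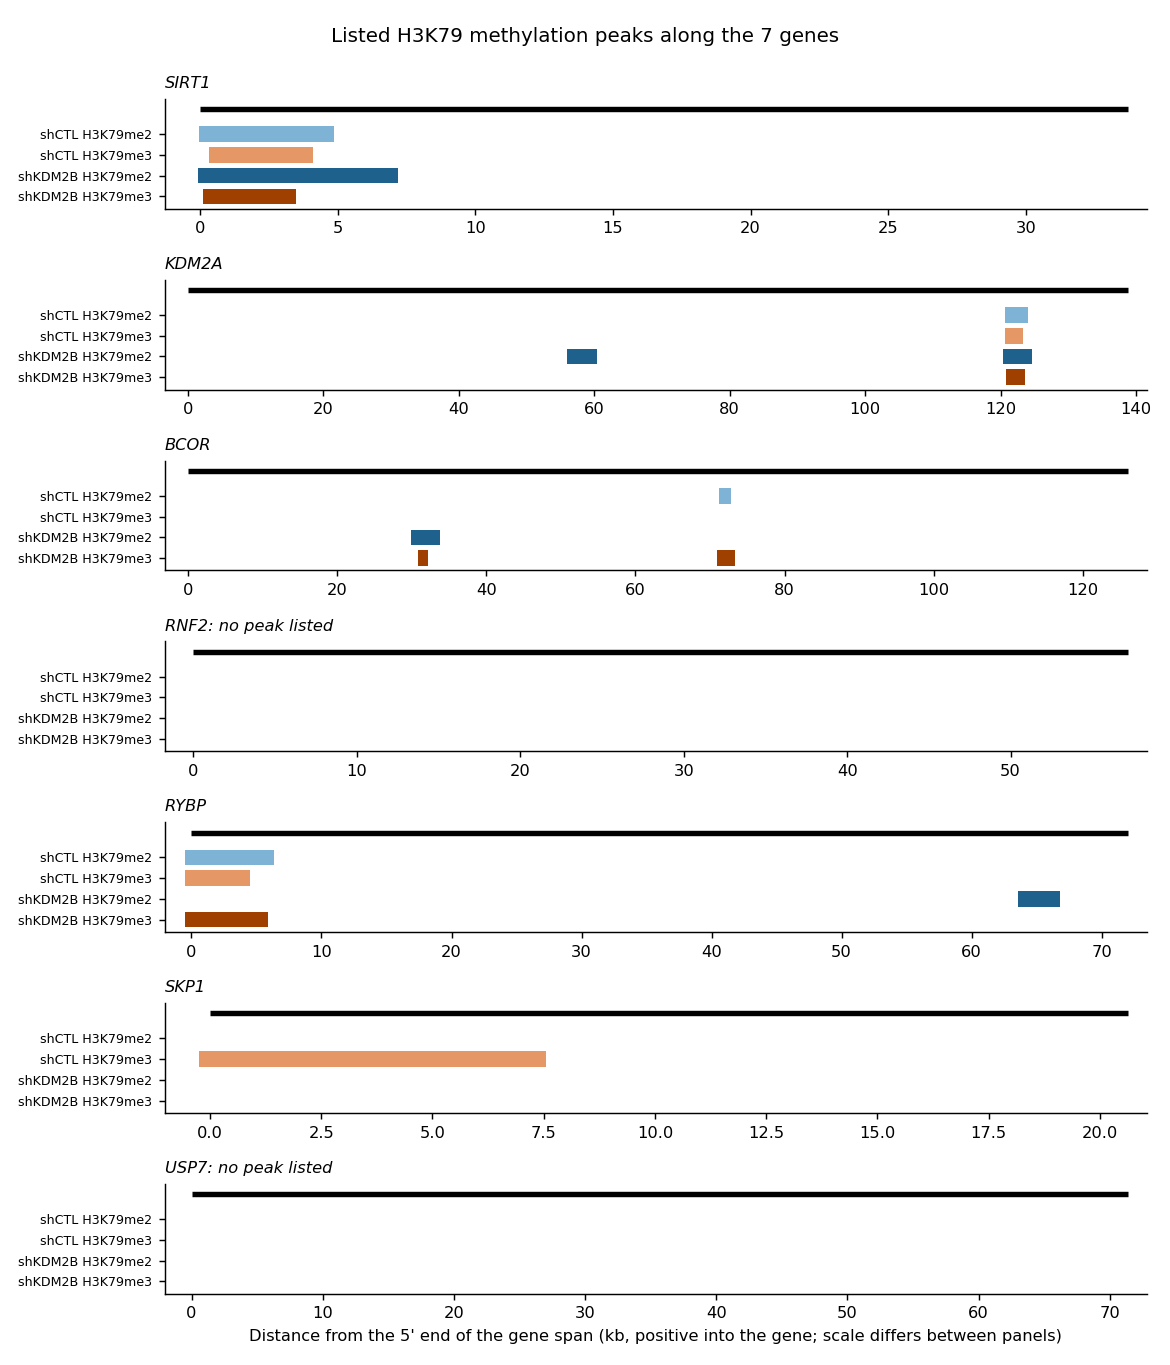
Listed peaks (coloured bars) of the 4 ChIP libraries along the 7 genes (black bars), by distance in kb from the 5′ end of each gene span. SIRT1 has a peak at its 5′ end in all 4 libraries, KDM2A has one from 120.4 to 120.8 kb onward in all 4, and RNF2 and USP7 have none.

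The libraries held 11912494 to 17044011 tags after removal of duplicates, and the levels below are tags per 1000000 of these (RPM), also divided by the called length of the peak in kb. Exact Poisson 95% intervals are given and cover counting error only. The caller worked with an estimated fragment of 148 and 180 bp for control H3K79me2 and H3K79me3, and of 210 and 126 bp for the knockdown libraries in that order. Between the lines, median peak width differed in the same direction as the fragment. It went from 2582 bp in control to 2985 bp in knockdown H3K79me2, and from 2542 to 2333.5 bp for H3K79me3. Between the marks in control cells it did not, as H3K79me3 had the larger fragment and the narrower median peak. A link between width and fragment was not tested. Values per kb therefore rest on lengths called separately in each library, and the tags of the whole peak are given beside them. The input libraries listed no peak on any of the 7 genes.

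SIRT1 (chr10:69644427-69678147, hg19, plus strand) carried both marks over its 5′ end in both lines. The H3K79me2 peak held 561 tags over 4915 bp in control cells (chr10:69644393-69649307) and 503 tags over 7274 bp in knockdown cells (chr10:69644356-69651629). The H3K79me3 peak held 338 tags over 3774 bp in control cells (chr10:69644748-69648521) and 471 tags over 3360 bp in knockdown cells (chr10:69644543-69647902). Both H3K79me3 peaks lay wholly inside both H3K79me2 peaks, and the 4 summits fell between 1405 and 1871 bp after the 5′ end. The peaks covered 9.96 to 21.4% of the gene, so that most of the SIRT1 body had no listed peak.

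Per kb, SIRT1 H3K79me3 stood at 5.25 RPM in control cells (95% interval 4.71 to 5.85) and at 8.55 in knockdown cells (7.80 to 9.36). These intervals do not overlap. The ratio was 1.63-fold, a log2 ratio of 0.70 with an exact conditional binomial 95% interval of 0.50 to 0.91 for counting error. By all tags of the peak, it was 19.8 RPM in control and 28.7 RPM in knockdown cells, 1.45-fold. SIRT1 H3K79me2 per kb went the other way, with 7.13 RPM in control cells (6.55 to 7.74) and 5.26 in knockdown cells (4.81 to 5.74), a log2 ratio of -0.44 (-0.61 to -0.26). That direction depended on the called length. By all tags of the peak, H3K79me2 was 35.0 RPM in control and 38.3 RPM in knockdown cells, with overlapping intervals. The log2 ratio of these tags was 0.13. The length of the merged region gives the same value, since a length shared by both libraries cancels. The wider knockdown H3K79me2 peak also ranked lower in its own list, where 29.6% of peaks had a lower caller score, against 77.2% in control cells.

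KDM2A (chr11:66886740-67025558, plus strand) carried both marks far inside the gene. All 4 libraries had a peak that began 120.4 to 120.8 kb after the 5′ end, and the 4 summits lay within 237 bp of each other, 527 to 764 bp after the distance of the second RefSeq start. A transcript that starts inside KDM2A is known to encode a short form of the protein that lacks the JmjC domain but keeps the CXXC finger. No library listed a peak at the first start, which is preceded by 40 CG dinucleotides against 9 at the second.

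The H3K79me3 peak of KDM2A held 227 tags over 2613 bp in control cells (chr11:67007374-67009986) and 350 tags over 2855 bp in knockdown cells (chr11:67007494-67010348). Per kb this was 5.10 RPM (4.46 to 5.80) and 7.48 RPM (6.72 to 8.31), a 1.47-fold ratio and a log2 ratio of 0.55 (0.31 to 0.80). By all tags of the peak, H3K79me3 was 13.3 RPM in control and 21.4 RPM in knockdown cells. The control value was the lower one on both scales, and the intervals of the lines do not overlap.

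H3K79me2 at the same KDM2A site held 419 tags over 3485 bp in control cells (chr11:67007358-67010842) and 266 tags over 4236 bp in knockdown cells (chr11:67007142-67011377). Per kb this was 7.51 RPM (6.80 to 8.26) and 4.78 RPM (4.22 to 5.39), and by all tags of the peak 26.2 and 20.2 RPM. H3K79me2 was thus lower in the knockdown library on both scales. The log2 ratio per kb of the overlapping peaks was -0.65 (-0.88 to -0.43), a level 0.636 times that of control cells. The knockdown library listed a second H3K79me2 peak 56.1 kb after the 5′ end, at chr11:66942798-66947217, with 134 tags and 2.31 RPM per kb. Its score of 50.7 was near the lowest in the list, 50.02, with 0.727% of the peaks below it. With this peak included in the sum over the gene, the log2 ratio per kb was -1.09, while the summed tags were higher in knockdown cells, at 30.4 against 26.2 RPM.

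BCOR (chrX:39910499-40036582, minus strand), the corepressor that joins PCGF1 to KDM2B in PRC1.1, had weak peaks in places that differed between the libraries. In knockdown cells an H3K79me2 peak of 136 tags (chrX:40002748-40006704) lay over the distance of the second start, with its summit 31.5 kb after the 5′ end. An H3K79me3 peak of 60 tags (chrX:40004368-40005817) began just past that distance, 30.8 kb after the 5′ end, with its summit at 31.6 kb. No control library listed a peak there. A second site lay 70.9 to 73.4 kb after the 5′ end. There, control cells had an H3K79me2 peak of 64 tags (chrX:39963814-39965329) and knockdown cells an H3K79me3 peak of 134 tags (chrX:39963202-39965651), and the other libraries listed none. RefSeq also places a non-coding RNA gene, LOC107985687, within the BCOR span.

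Per kb, the BCOR peaks were low. H3K79me2 stood at 2.64 RPM (2.03 to 3.37) in control cells at the second site and at 2.61 RPM (2.19 to 3.09) in knockdown cells at the start. H3K79me3 in knockdown cells stood at 2.52 RPM (1.93 to 3.25) at the start and 3.34 RPM (2.80 to 3.95) at the second site. All 4 intervals overlap. As the H3K79me2 peaks of the lines lie in different places, no ratio of this mark can be read for a BCOR site, and a missing peak is not a level of 0. Both knockdown H3K79me3 peaks were under 3 kb wide, a class in which 37.1% of the 4370 knockdown H3K79me3 peaks had no control counterpart (95% interval 35.6 to 38.5%, Clopper-Pearson), against 27.2% over all widths. The control H3K79me2 peak was also under 3 kb wide. Of the control H3K79me2 peaks of that width, 19.0% had no knockdown counterpart, against 19.0% over all widths.

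RYBP (chr3:72423744-72495774, minus strand), which can take the place of a CBX subunit beside RING1 proteins, carried H3K79me3 over its 5′ end in both lines. The peak held 316 tags over 4978 bp in control cells (chr3:72491303-72496280) and 603 tags over 6404 bp in knockdown cells (chr3:72489896-72496299). Per kb this was 3.72 RPM (3.33 to 4.16) and 5.75 RPM (5.30 to 6.22), a 1.54-fold ratio and a log2 ratio of 0.63 (0.43 to 0.83). By all tags of the peak, it was 18.5 and 36.8 RPM, 1.98-fold. The knockdown library was the higher one on both scales, and the control peak lay wholly inside the knockdown peak.

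H3K79me2 at the RYBP 5′ end was listed in control cells alone, with 624 tags over 6805 bp (chr3:72489428-72496232), 39.0 RPM and 5.72 RPM per kb (5.28 to 6.19). In its list, 28.1% of the peaks had a lower score. The knockdown list held an H3K79me2 peak 63.6 kb into the gene instead (chr3:72428991-72432210), with 103 tags, 2.43 RPM per kb and a score of 51.1, with 1.08% of its list below it. No ratio of H3K79me2 can therefore be read for the RYBP 5′ end. Among control H3K79me2 peaks of 5 to 7 kb, 199 of 887 (22.4%, 95% interval 19.7 to 25.3%) had no knockdown counterpart. The share was 19.0% over all widths, 19.0% under 3 kb and 11.3% at 3 to 5 kb. The knockdown H3K79me2 peaks in the RYBP and KDM2A bodies and at the BCOR start were 3 to 5 kb wide. Of the 1778 knockdown H3K79me2 peaks of that width, 75 (4.22%, 95% interval 3.33 to 5.26%) had no control counterpart. Over all widths the share was 12.2%.

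SKP1 (chr5:133492082-133512724, minus strand), the adaptor of SCF ubiquitin ligases that binds the F-box of KDM2B, had a single peak, of H3K79me3 in control cells. It reached from -238 to 7548 bp relative to the 5′ end (chr5:133505176-133512962) and held 918 tags over 7787 bp, 53.9 RPM (50.4 to 57.5) and 6.92 RPM per kb (6.48 to 7.38). This was the highest tag sum among the 18 peaks, but only 32.1% of the peaks in its list had a lower score. The nearest peaks of the other ChIP libraries lay 187 to 188 kb beyond the span. Of the 284 control H3K79me3 peaks of 7 kb or wider, 71 (95% interval 20.1 to 30.5%) had no knockdown counterpart, against 8.70% over all widths and 5.82% at 3 to 5 kb. The part of peak width in this missing call was not tested, and the absence of a knockdown peak gives no level.

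RNF2 (chr1:185014551-185071740, plus strand), the RING1B ubiquitin ligase subunit, had no listed peak. The nearest ChIP peaks lay 51.6 to 52.8 kb beyond its 3′ end in the 4 libraries. USP7 (chr16:8985951-9057341, minus strand), a deubiquitinase found with PRC1.1, had none either. The nearest peaks lay 23.4 to 23.5 kb beyond its 3′ end in 3 ChIP libraries and 88.6 kb beyond its 5′ end in knockdown H3K79me2. These lists show no more than that no window on either gene passed the caller's threshold.

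**Figure D2:**
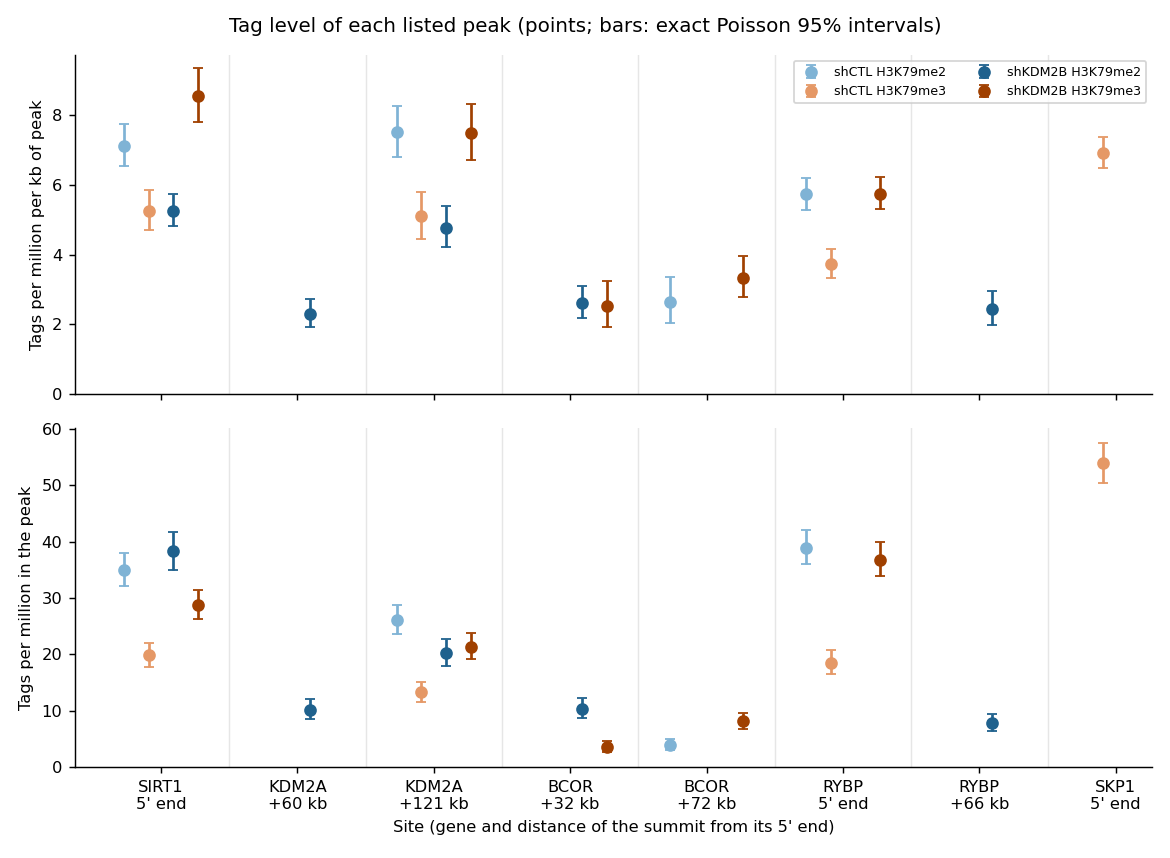
Level of each listed peak per kb (top, RPM per kb) and in all (bottom, RPM), with exact Poisson 95% intervals, by site and library. At the SIRT1 and KDM2A sites knockdown H3K79me3 is above control H3K79me3 in both panels, whereas SIRT1 H3K79me2 is lower in knockdown cells per kb only.

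SIRT1 and KDM2A stood at or near the top of the levels per kb in each library. In control H3K79me2, KDM2A (7.51) and SIRT1 (7.13 RPM per kb) had overlapping intervals and stood above RYBP (5.72), and BCOR was last (2.64). In control H3K79me3, SKP1 (6.92 RPM per kb) stood above SIRT1 (5.25) and KDM2A (5.10), which overlapped, and RYBP (3.72) was last. In knockdown H3K79me2, the SIRT1 (5.26 RPM per kb) and KDM2A (4.78) start sites overlapped and stood above the peaks of BCOR, of RYBP and of the KDM2A body, at 2.31 to 2.61. In knockdown H3K79me3, SIRT1 (8.55 RPM per kb) and KDM2A (7.48) overlapped, followed by RYBP (5.75) and the BCOR peaks. Against all peaks of their lists, the SIRT1 and KDM2A start sites were dense: 68.2 to 83.8% of the peaks had fewer tags per kb.

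H3K79me3 was higher per kb in knockdown cells at each of the 3 sites with a peak of this mark in both lines, with a median log2 ratio of 0.63. All shared regions moved by nearly as much. Over 5087 regions with an H3K79me3 peak in both lines, formed the same way, the median log2 ratio per kb was 0.55 and 96.9% were above 0. SIRT1 and RYBP exceeded 1.5-fold and KDM2A fell short of it, 2 of 3, where 44.9% of all regions were past that fold. Relative to the median of all regions the log2 ratios were 0.16 for SIRT1, 0.08 for RYBP and 0.01 for KDM2A. Per kb, the counting intervals of all 3 genes hold the median of all regions. On that scale the difference at these genes was not distinguishable from that of the list as a whole. By all tags of the peaks, the median log2 ratio of all regions was 0.60. SIRT1 stood at 0.54, KDM2A at 0.68 and RYBP at 0.99 on this scale. RYBP was thus farther above the median of all regions by tags than per kb.

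For H3K79me2 the 2 sites with overlapping peaks were both lower per kb in knockdown cells. Over 5432 shared H3K79me2 regions the median log2 ratio was -0.15 per kb and 0.00 by all tags of the peaks. SIRT1 differed from that median by -0.28 and KDM2A by -0.50. KDM2A was more than 1.5-fold lower and SIRT1 was not, where 4.42% of all regions were lower by more than that fold. The KDM2A ratio was below that of 97.4% of the regions and the SIRT1 ratio below that of 88.6%. Per kb, the intervals of both genes exclude the median of all regions, for counting error only. By all tags of the peaks the log2 ratio was 0.13 at SIRT1, above the median of 0.00, and -0.37 at KDM2A, below it.

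**Figure D3:**
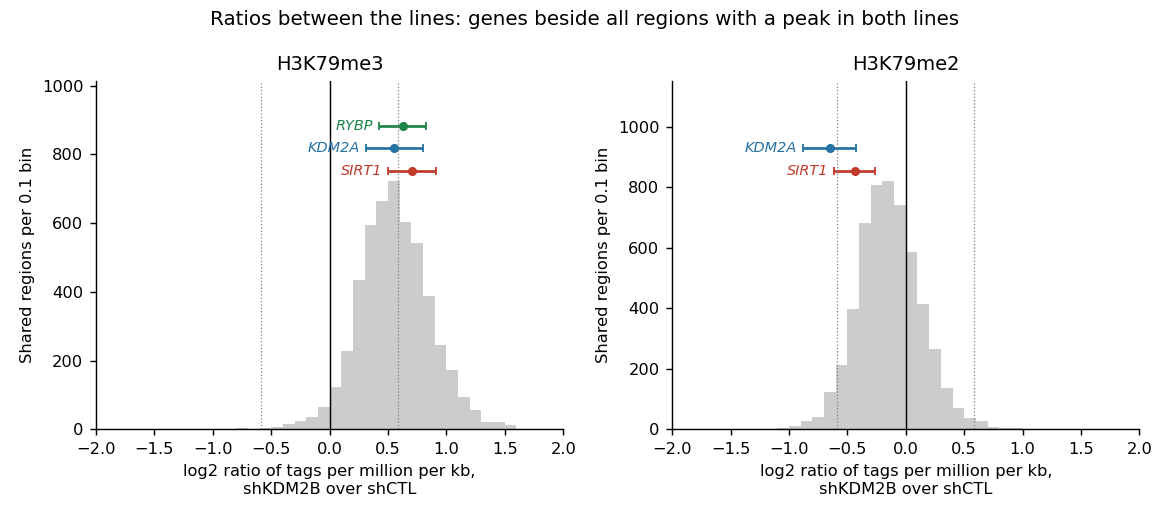
Log2 ratio of RPM per kb, shKDM2B over shCTL, for all regions with a peak in both lines (grey histograms, number of regions per bin of 0.1) and for the genes with overlapping peaks (points with exact 95% counting intervals; height has no meaning). Dotted lines mark 1.5-fold. The H3K79me3 ratios of the 3 genes lie in the middle of the histogram, and the H3K79me2 ratio of KDM2A lies in its lower tail.

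The marks can also be set side by side within a line, with the limit that they come from 2 antibodies and that a ratio between them describes libraries and not amounts. In control cells H3K79me3 was below H3K79me2 per kb at SIRT1 (0.737 times), KDM2A (0.679) and RYBP (0.651). Over 4531 regions with both marks in control cells the median was 0.664, and H3K79me3 was more than 1.5-fold lower in 50.6% of them, as it was at RYBP alone of the 3 genes. Relative to that median the log2 ratios were 0.15, 0.03 and -0.03.

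In knockdown cells H3K79me3 was above H3K79me2 per kb at SIRT1 (1.63-fold) and at the KDM2A start site (1.57-fold). The BCOR peaks at the second start did not differ beyond counting error (log2 ratio -0.05, interval -0.51 to 0.40). Over 5143 regions with both marks in knockdown cells the median was 1.09-fold, and H3K79me3 was more than 1.5-fold higher in 6.32%, which include SIRT1 and KDM2A. This too rests on the called lengths. By all tags of the peaks, H3K79me3 over H3K79me2 in knockdown cells was 0.751 at SIRT1 and 1.06 at the KDM2A site, and the median log2 ratio of all these regions was -0.37.

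SIRT1 and KDM2A were the 2 genes with overlapping peaks of both marks in both lines. At both, H3K79me3 per kb was higher and H3K79me2 per kb lower in knockdown cells, and H3K79me3 went from below H3K79me2 in control to above it in knockdown cells. Of the 3922 merged regions with a peak in all 4 ChIP libraries, 77.7% showed the former and 70.5% the latter, per kb. Counted over all tags, 56.8% showed the former and 25.2% the latter. KDM2A showed both on the tag scale as well, and SIRT1 showed neither. In knockdown cells the KDM2A tag levels of H3K79me3, 21.4 RPM (19.2 to 23.7), and H3K79me2, 20.2 RPM (17.9 to 22.8), had overlapping intervals. The latter pattern was therefore not beyond counting error at KDM2A on that scale.

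**Figure D4:**
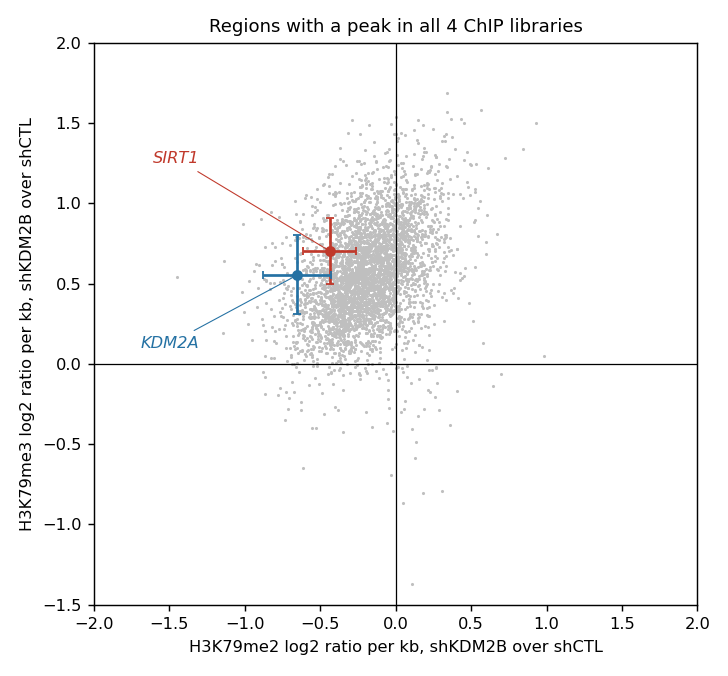
Log2 ratio of RPM per kb, shKDM2B over shCTL, of H3K79me2 (horizontal) and H3K79me3 (vertical) in the 3922 regions with a peak in all 4 ChIP libraries (grey) and at SIRT1 and KDM2A (points with exact 95% counting intervals). Both genes lie in the upper left part, with the H3K79me2 ratio of KDM2A toward the low edge of the cloud.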

How the data were processed

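Peak lists of 6 libraries, 1 per group, were used. The submitters' processing notes name Bowtie2 and the build hg19 (GRCh37). Per the file headers, MACS 1.4.2 called peaks in each library without a control file, at a p cutoff of 1e-05, with 1 tag kept per position and a background range of 10000 bp. The deposited tag count of each peak is raw. Fold enrichment, also deposited, is a ratio to the local background of the same library. The deposited significance column was treated as a score, since its lowest value is 50 at that cutoff, 10 times the negative log10 that it names. The deposited positions are 1-based.

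Unplaced and alternative sequences were left out. The members, gene spans and alternatives were chosen with earlier results of these data known, and every gene of the list is described. For ratios, tags and lengths of the peaks on a gene were summed per library; ratios of overlapping peaks, an alternative added after the data were seen, are used in the text where peaks of the compared libraries lay apart. Background regions are peaks of the compared libraries merged from 1 bp of overlap. Region code was tested on simulated data. Python 3.11.15, pandas 2.3.3, numpy 2.4.6, scipy 1.17.1 and matplotlib 3.10.9 were used. Strands, promoter sequences and neighbouring genes came from RefSeq (GRCh38.p14). Other PRC1.1, sirtuin, JmjC and SCF genes were not analysed here, because an hg19 annotation was not used.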

Additional observations from a re-analysis of the deposited data

Results flagged for a closer look

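H3K79me3 was higher and H3K79me2 lower per kb in knockdown cells at both genes with overlapping peaks in all 4 ChIP libraries. The log2 ratio, knockdown over control, of H3K79me3 exceeded that of H3K79me2 by 1.14 at SIRT1 and by 1.21 at KDM2A. On the scale of all tags it did so by 0.41 at SIRT1, where H3K79me2 was not lower (log2 ratio 0.13), and by 1.05 at KDM2A. With 1 library per group this difference was not tested, and 77.7% of the regions with 4 peaks showed the same directions per kb and 56.8% by tags. Over the shared regions of each mark, the median log2 ratio per kb was 0.55 for H3K79me3 and -0.15 for H3K79me2. By all tags these medians were 0.60 and 0.00. A difference between the marks was thus not particular to these genes.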

How the results depend on the processing

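Each list carries counting error from 60 to 918 tags per peak, and there is no replicate. Results are medians of log2 ratios per kb over the genes with a peak in both libraries. The higher H3K79me3 in knockdown cells, 0.63, kept its direction under each of the 11 alternatives, but was 0.079 when centred on all shared regions and 0.073 per tags in peaks. Some of these alternatives changed none of the H3K79me3 peaks on the genes, as given further below. The value for H3K79me2 between the lines, -0.77 with all peaks of a gene summed, joins places that differ at BCOR (-0.01) and RYBP (-1.23) and is no measure of a site. In overlapping peaks, SIRT1 and KDM2A, it was -0.54. With all peaks it was -0.61 centred and -0.49 per tags in peaks. It was -0.65 in the higher-scoring 50% of each list (KDM2A alone) and -0.44 within 5 kb of the 5′ end (SIRT1 alone). It reversed to 0.17 on the merged length, with SIRT1 at 0.13, KDM2A with both knockdown peaks at 0.22, BCOR at 1.37 and RYBP at -2.31; the tags of the KDM2A start site alone gave -0.37. A merged length is shared by both libraries and cancels, so here and below this alternative equals the ratio of all tags. H3K79me3 over H3K79me2 in control cells was -0.56. It was -0.14 per tags in peaks, -0.97 on the merged length, and reversed to 0.032 when centred (SIRT1 0.15, KDM2A 0.032, RYBP -0.030). In knockdown cells it was 0.90 with all peaks, RYBP (1.24) again joining different places, and 0.65 in overlapping peaks. With all peaks it was 0.77 centred and 0.48 per tags in peaks, 0.65 in the higher-scoring 50% (KDM2A alone) and 0.70 within 5 kb of the 5′ end (SIRT1 alone). It reversed to -0.11 on the merged length, with SIRT1 at -0.41, KDM2A with both H3K79me2 peaks at -0.51, BCOR at 0.19 and RYBP at 2.23; the KDM2A start site alone gave 0.078. With the higher-scoring 50% of peaks, genes with a peak numbered 2 and not 4 in control H3K79me2, 1 and not 4 in knockdown H3K79me2, and 2 and not 4 in knockdown H3K79me3. Leaving out peaks on input peaks, joining peaks within 1 kb, widening the spans by 2 kb and taking peaks by their centre changed no value. These settings altered none of the peaks on the genes, so they are no check of the medians. Scaling by the library's tags before duplicate removal, with the tag counts of the peaks unchanged, left the medians within counting error. It is no check of the duplicates within peaks. The causes were not tested, beyond the lengths and scalings that each alternative changes.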
